A study of Homo sapiens with 9 samples.

Results

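Most of the 10 genes described here encode proteins that copy the mitochondrial genome into RNA or that tail, stabilise or degrade that RNA. TWNK encodes a helicase for replication of mitochondrial DNA, and FASTKD2 a protein needed for the large ribosomal RNA of mitochondria. The 10 genes were TFAM, TFB2M, POLRMT, TWNK, LRPPRC, SLIRP, MTPAP, PNPT1, SUPV3L1 and FASTKD2, taken by symbol from the 60591 symbols of the count table. All 10 were among the 15944 genes that passed the expression filter. Messenger RNA was sequenced from uCaco-2 cells, the undifferentiated state of Caco-2, a single established line from a human colon adenocarcinoma. The 3 groups of 3 biological replicates were kept for 24 h in medium with 300 μM CoCl2 (cobalt(II) chloride), with 5 μM of the oxyquinoline derivative 4896-3212 (OD) or with neither. DMSO, in which OD was dissolved, was also added at 0.5% to the CoCl2 and control media. The stated stock and dose of OD would by themselves bring less DMSO than that, so whether the solvent was equal in all 3 groups is uncertain. Both agents are used to mimic hypoxia by blocking the breakdown of hypoxia-inducible factors (HIF), and the comparisons asked how each one changed gene expression relative to control cells and relative to the other.

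Mitochondrial DNA is transcribed by a dedicated RNA polymerase into long transcripts that are cut into messenger, ribosomal and transfer RNAs. The messenger RNAs then receive short poly(A) tails, are held by binding proteins and are finally degraded inside the organelle. Every protein of this machinery is encoded in the nucleus, so these nuclear transcripts and the mitochondrial transcripts are made by separate polymerases.

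The control libraries held between 15998136 and 18298190 counts, those with CoCl2 between 16286502 and 24209427 and those with OD between 16387054 and 19623776. The TMM factors, which correct for differences in RNA composition, were 1.11 to 1.12, 0.770 to 0.795 and 1.14 to 1.15 in these groups. The scale chosen for the CoCl2 libraries therefore affected the size of all their differences and the direction of small ones. Of 8 intestinal epithelial markers, 7 had at least 10 counts in every library, and their summed level was 10790 to 11318 CPM (counts after scaling each library to an equal effective size) in control cells, 12887 to 13818 with CoCl2 and 10123 to 10677 with OD. With CoCl2 7 of the 8 rose and 1 fell by the adjusted p, but 0 rose and 6 fell with library totals alone. Among these, LGALS4 had only 5 to 33 counts, and VIL1, which encodes villin of the brush border, fell with CoCl2 (log2 fold change -2.45). Summed markers of other cell types reached 20.4 to 24.98 CPM in control cells, 17.4 to 18.4 with CoCl2 and 26.8 to 27.5 with OD; 3 of these 8 had at least 10 counts in every library, while PTPRC, COL1A2 and ACTA2 had at most 3 counts. Their part in the results was not tested. Of 5 listed HIF target genes 4 were tested (CA9, with 0 to 16 counts, was not), and all 4 rose with both agents: the log2 fold changes with CoCl2 and OD were 3.69 and 3.22 for NDRG1, 3.77 and 3.98 for BNIP3, 2.39 and 3.26 for PDK1 and 1.22 and 1.41 for VEGFA, which stood at 0.72 with CoCl2 on library totals alone.

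In the GENCODE 44 annotation of GRCh38, TFAM lay on chromosome 10 at 58385345 to 58399220 (plus strand), TFB2M on chromosome 1 at 246540561 to 246566261 (minus) and POLRMT on chromosome 19 at 617221 to 633537 (minus). TWNK occupied chromosome 10 at 100987367 to 100994403 (plus), LRPPRC chromosome 2 at 43886224 to 43996226 (minus) and SLIRP chromosome 14 at 77708071 to 77761104 (plus). MTPAP was found on chromosome 10 at 30309801 to 30374448 (minus) and PNPT1 on chromosome 2 at 55634061 to 55693863 (minus). SUPV3L1 was on chromosome 10 at 69180234 to 69209099 (plus), and FASTKD2 was on chromosome 2 at 206765357 to 206796189 (plus). The authors counted reads on an earlier GENCODE release, so the overlaps and lengths given here describe GENCODE 44 and need not match the exons counted. In GENCODE 44, exons of other genes covered 33.3% of the exonic bases of MTPAP, of which a pseudogene on the same strand, GOLGA2P6, covered 19.5%. For SLIRP this overlap was 14.8%, with C14orf178 on the same strand at 10.3%, and for TWNK 3.6%, with MRPL43 on the opposite strand, so counts of MTPAP and SLIRP carry the most uncertainty from shared reads.

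The promoters of 4 of these genes are printed because they mark the contrast in the data. TFB2M and POLRMT, subunits of the transcription machinery, both rose with CoCl2 and both fell with OD. By the adjusted p TWNK, LRPPRC and MTPAP did so too, though their rises with CoCl2 turned negative with library totals alone. SUPV3L1 and PNPT1, partners in RNA decay, moved apart with CoCl2. Each promoter is the 250 bases before the RefSeq start site on the gene's own strand, 5′ to 3′, in GRCh38.p14. Capitals mark matches, on either strand, to the core of the NRF1 site (GCNTGCGC) or the core of ETS factors such as GABPA (CGGAAG).

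TFB2M chr1:246566262-246566511 (minus strand): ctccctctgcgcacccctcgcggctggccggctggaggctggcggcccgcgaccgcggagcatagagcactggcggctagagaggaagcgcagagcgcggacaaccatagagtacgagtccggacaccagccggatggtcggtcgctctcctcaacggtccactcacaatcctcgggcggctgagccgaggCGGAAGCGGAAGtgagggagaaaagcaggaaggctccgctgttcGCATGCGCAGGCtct
POLRMT chr19:633538-633787 (minus strand): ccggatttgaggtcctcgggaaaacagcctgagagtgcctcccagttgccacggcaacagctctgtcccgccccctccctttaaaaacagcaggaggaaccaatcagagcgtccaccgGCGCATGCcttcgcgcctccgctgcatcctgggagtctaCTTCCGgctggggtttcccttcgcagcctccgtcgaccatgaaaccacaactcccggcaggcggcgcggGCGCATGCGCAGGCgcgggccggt
SUPV3L1 chr10:69179984-69180233 (plus strand): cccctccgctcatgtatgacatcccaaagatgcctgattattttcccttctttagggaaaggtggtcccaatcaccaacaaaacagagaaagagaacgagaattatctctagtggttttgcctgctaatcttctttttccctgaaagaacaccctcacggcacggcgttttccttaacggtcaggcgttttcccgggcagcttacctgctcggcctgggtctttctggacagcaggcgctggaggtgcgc
PNPT1 chr2:55693845-55694094 (minus strand): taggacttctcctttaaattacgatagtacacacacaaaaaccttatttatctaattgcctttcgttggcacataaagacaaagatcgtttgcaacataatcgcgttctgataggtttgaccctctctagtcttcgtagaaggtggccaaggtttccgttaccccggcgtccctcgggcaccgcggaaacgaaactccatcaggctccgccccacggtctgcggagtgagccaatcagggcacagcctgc

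TFB2M and POLRMT each held both kinds of match, and neighbouring NRF1 matches overlapped each other in both. SUPV3L1 and PNPT1 held neither. Of the 9 members with an entry (TWNK had none), the NRF1 core was found in 4 (TFAM, TFB2M, POLRMT and MTPAP), against 10.4% of all 35116 promoters of this length. The ETS core was also found in 4 (TFB2M, POLRMT, LRPPRC and SLIRP), against 16.5%. The core of the HIF site (ACGTG) was in 0 of the 9 windows and in 18.5% of all promoters. These letters were picked with the sequences in view, and a match describes the sequence only.

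With CoCl2, the transcription factor TFB2M, the RNA polymerase POLRMT and the helicase SUPV3L1 rose, whereas SLIRP, PNPT1 and FASTKD2 fell. Genes were counted as differentially expressed at an adjusted p under 0.05 (edgeR) with a log2 fold change above 1 in size, which 4 of the 10 met (SUPV3L1 upregulated, SLIRP, PNPT1 and FASTKD2 downregulated). Over all genes tested this share was 43.2%, with 19.9% higher and 23.4% lower. By the adjusted p alone, 6 members rose and 3 fell, beside 83.2% of all genes changed (40.4% higher, 42.8% lower). If libraries were scaled by their totals alone, 3 members rose and 7 fell, and the median of all genes moved to -0.55 (log2). The libraries of both groups did not overlap for 9 of the 10 members, beside 83.4% of all genes. The median log2 fold change was 0.18 over the members and -0.049 over all genes. Because whole cultures were sequenced, fewer cells of a type and less RNA per cell cannot be told apart.

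With OD the pattern was a shallower and more uniform decrease: all 10 fold changes were negative, against 8087 of the 15944 genes tested. By the adjusted p alone 9 of the 10 fell and 0 rose, where 65.6% of all genes changed (33.3% lower, 32.3% higher). None of the members rose at an unadjusted p under 0.05 by edgeR or DESeq2 (0 in each). The threshold on fold change was passed by 1 member, PNPT1, and by 13.3% of all genes (9.09% higher, 4.16% lower). Control and OD libraries did not overlap for 9 members and for 68% of all genes. The median log2 fold change was -0.51 over the members and -0.010 over all genes. The comparisons of CoCl2 and OD with control share the same 3 control libraries and are therefore not independent.

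**Figure D1:**
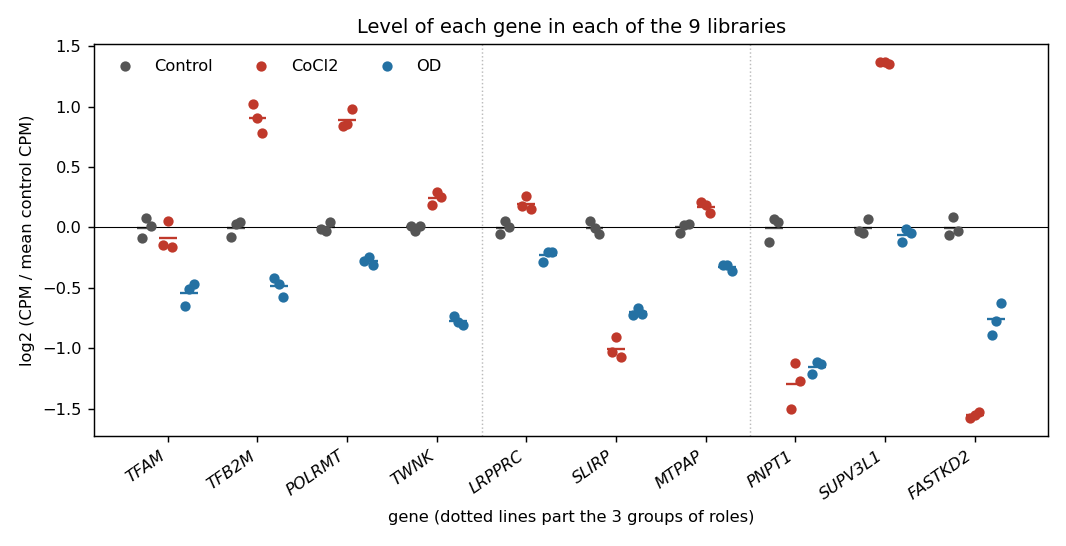
Level of each of the 10 genes in the 9 libraries, as log2 of CPM over the mean control CPM (vertical axis). Points are libraries (grey control, red CoCl2, blue OD) and short bars are group means. Dotted lines part the genes of transcription and nucleoid, of stabilisation and polyadenylation, and of RNA decay and ribosomal RNA handling. OD libraries lie below all controls for every gene but SUPV3L1, and CoCl2 libraries lie far above them for TFB2M, POLRMT and SUPV3L1.

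TFAM, which packages mitochondrial DNA and bends its promoters for transcription, was at 218, 245 and 234 CPM in the control libraries. It was at 210, 241 and 208 CPM with CoCl2 and at 148, 163 and 167 CPM with OD. The CoCl2 libraries overlapped those of control cells, whereas all 3 OD libraries lay below both other groups. The log2 fold change with CoCl2 was -0.085 ± 0.051 (SE; 95% interval -0.19 to 0.019; edgeR adjusted p = 0.122). This value passed the adjusted p threshold with library totals alone (-0.59), with upper-quartile factors (-0.18), without a filter on low counts (-0.15), without Control replicate 1 (-0.13) and without CoCl2 replicate 2 (-0.15). With OD, TFAM fell by 0.54 ± 0.051 on the log2 scale (edgeR adjusted p = 1.03e-11).

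TFB2M, the factor that joins the mitochondrial RNA polymerase to melt promoter DNA, had 35.8, 38.5 and 38.9 CPM in control cells. With CoCl2 it had 76.5, 70.9 and 64.98 CPM, and with OD 28.2, 27.3 and 25.4 CPM. The 3 groups did not overlap, with CoCl2 highest and OD lowest. It rose with CoCl2 (log2 fold change 0.90 ± 0.060, adjusted p = 9.04e-22 by edgeR), by 0.40 on the log2 scale if libraries were scaled by their totals alone. The change with OD was -0.48 ± 0.064 (edgeR adjusted p = 1.36e-09).

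POLRMT, the mitochondrial RNA polymerase itself, followed the same order of groups. Its control libraries held 70.3, 69.9 and 73.2 CPM, its CoCl2 libraries 127, 129 and 140 CPM and its OD libraries 58.6, 60.2 and 57.3 CPM. No library of one group reached the range of another. The increase with CoCl2 was 0.89 ± 0.049 on the log2 scale (edgeR adjusted p = 1.25e-25), or 0.39 with library totals alone, and OD gave -0.28 ± 0.051 (edgeR adjusted p = 3.31e-06). TFB2M and POLRMT thus stayed just below the threshold on fold change with CoCl2.

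TWNK encodes Twinkle, the helicase that unwinds mitochondrial DNA for replication. Its level was 60.9, 59.3 and 60.8 CPM in control cells, 68.8, 73.9 and 72.0 CPM with CoCl2 and 36.4, 35.1 and 34.6 CPM with OD. The groups were again separate, and the drop with OD was the largest among the 4 transcription and nucleoid genes (log2 fold change -0.77 ± 0.055, edgeR adjusted p = 1.28e-19). The small increase with CoCl2 (0.25 ± 0.052, edgeR adjusted p = 2.38e-05) turned into a decrease of -0.26 when library totals alone set the scale.

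LRPPRC and SLIRP form the complex that protects mitochondrial messenger RNAs, and MTPAP adds their poly(A) tails. LRPPRC was at 494, 534 and 515 CPM in control cells, at 583, 615 and 572 CPM with CoCl2 and at 422, 447 and 448 CPM with OD. These ranges were separate but close. The log2 fold changes were 0.20 ± 0.040 with CoCl2 (edgeR adjusted p = 1.07e-05; -0.31 with library totals alone) and -0.23 ± 0.040 with OD (edgeR adjusted p = 1.13e-06).

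SLIRP did not move with its partner under CoCl2. Control libraries held 79.3, 76.2 and 73.8 CPM, CoCl2 libraries 37.5, 40.8 and 36.3 CPM, and OD libraries 46.4, 48.3 and 46.5 CPM. Both treated groups lay well below control, CoCl2 lowest. SLIRP fell by 1.01 ± 0.056 on the log2 scale with CoCl2 (edgeR adjusted p = 3.62e-25) and by 0.70 ± 0.053 with OD (edgeR adjusted p = 2.05e-18). Its value with CoCl2 sat at the threshold on fold change: it was -0.98 without Control replicate 1, -0.99 without CoCl2 replicate 1 and -0.97 without CoCl2 replicate 3. It was also short of the threshold with RLE factors (-0.96), with factors computed without mitochondrial genes (-0.997), by DESeq2 on 9 libraries (-0.99) and in thinned counts (-0.98), and missed the test against a log2 fold change of 1 (edgeR glmTreat adjusted p = 0.501).

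MTPAP was at 48.5, 50.8 and 51.1 CPM in control cells, at 58.0, 57.0 and 54.5 CPM with CoCl2 and at 40.3, 40.4 and 39.0 CPM with OD. Like LRPPRC it moved little, with separate groups in the order CoCl2, control, OD. Its change with CoCl2 was 0.17 ± 0.055 (edgeR adjusted p = 0.00389), which became -0.34 with library totals alone and missed the threshold with upper-quartile factors (adjusted p = 0.224) or without a filter on low counts (adjusted p = 0.154). With OD it was -0.33 ± 0.055 (edgeR adjusted p = 5.19e-07).

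With CoCl2, the 3 genes of RNA decay and ribosomal RNA handling had the 3 largest fold changes in size among the 10, under TMM factors. PNPT1 encodes polynucleotide phosphorylase, the exonuclease that degrades mitochondrial RNA together with the helicase encoded by SUPV3L1. PNPT1 was at 155, 177 and 174 CPM in control cells, at 59.5, 77.6 and 70.0 CPM with CoCl2 and at 72.9, 77.8 and 77.2 CPM with OD. Both treated groups lay far below control and overlapped each other. The log2 fold changes were -1.29 ± 0.068 with CoCl2 (edgeR adjusted p = 1.35e-14) and -1.15 ± 0.065 with OD (edgeR adjusted p = 1.78e-13), and with OD only 2.83% of all genes had a lower fold change.

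SUPV3L1 went the other way with CoCl2. It was at 71.5, 70.7 and 76.5 CPM in control cells, at 188, 188 and 186 CPM with CoCl2 and at 66.9, 72.0 and 70.6 CPM with OD. The CoCl2 libraries were within a narrow band far above control, while OD and control overlapped. The increase with CoCl2 was 1.36 ± 0.047 on the log2 scale (edgeR adjusted p = 2.63e-36), a 2.57-fold rise, and stood at 0.86 with library totals alone, below the threshold on fold change. With OD the log2 fold change was -0.060 (95% interval -0.16 to 0.037; edgeR adjusted p = 0.28).

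FASTKD2, an RNA-binding protein needed for the large ribosomal RNA of mitochondria and for ribosome assembly, fell with both agents. Control libraries were at 75.4, 83.9 and 77.4 CPM, CoCl2 libraries at 26.5, 26.9 and 27.4 CPM and OD libraries at 42.6, 46.1 and 51.3 CPM. CoCl2 brought it lowest, with no overlap between groups. The log2 fold change was -1.55 ± 0.063 with CoCl2 (edgeR adjusted p = 1.65e-32), or 2.93-fold lower, and -0.76 ± 0.056 with OD (edgeR adjusted p = 5.64e-19). Exact two-sided permutation tests gave p = 0.1, the smallest possible with 3 libraries against 3, for each member whose groups did not overlap, and p = 0.3 for TFAM with CoCl2 and p = 0.4 for SUPV3L1 with OD.

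**Figure D2:**
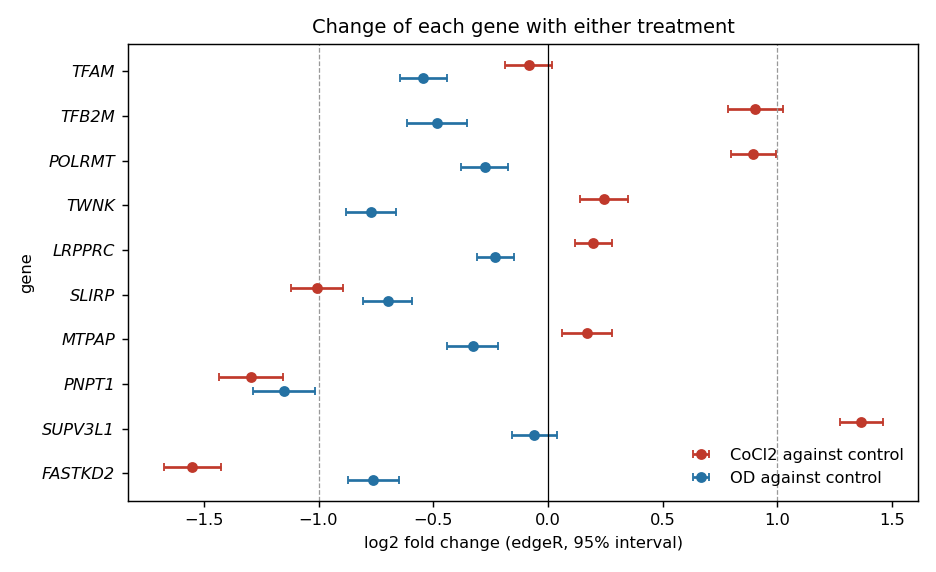
Log2 fold change of each of the 10 genes against control (horizontal axis) with CoCl2 (red) and OD (blue), with 95% intervals from edgeR and dashed lines at a log2 fold change of 1 in either direction. SUPV3L1 at 1.36 and FASTKD2 at -1.55 with CoCl2 mark the extremes; with library totals alone the small positive values of TWNK, LRPPRC and MTPAP with CoCl2 turn negative.

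Set directly against OD, CoCl2 gave higher levels of TFB2M, POLRMT, TWNK and SUPV3L1 by the adjusted p, with TMM factors and with library totals alone. Of the 10 members, 4 were differentially expressed, all of them higher with CoCl2 (TFB2M, POLRMT, TWNK and SUPV3L1), beside 41.3% of all genes, 17.5% higher and 23.8% lower. With library totals alone, 0 members were higher and 1, FASTKD2, was lower. On that scale 7378 of the 15944 genes tested passed both thresholds, 18.3% of them higher. By the adjusted p alone, with TMM factors, 7 members were higher and 2 lower, beside 83.5% of all genes changed (40.2% higher, 43.2% lower). With library totals alone these counts of members were 4 and 4, and the median of all genes was -0.60 (log2). The libraries did not overlap for 9 of the 10, beside 83.8% of all genes. The log2 difference was 1.39 ± 0.061 for TFB2M (edgeR adjusted p = 2.04e-30), 1.17 ± 0.049 for POLRMT (edgeR adjusted p = 2.10e-31) and 1.42 ± 0.047 for SUPV3L1 (edgeR adjusted p = 2.25e-37). For TWNK it was 1.02 ± 0.055 (edgeR adjusted p = 5.81e-26), at 0.9995 without CoCl2 replicate 2 and 0.99 without OD replicate 3, and below the threshold also with upper-quartile factors (0.89), library totals alone (0.47), either other filter on low counts (0.95 and 0.96) and DESeq2 on 6 libraries (0.9987).

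Smaller differences between the agents depended on the scale. TFAM (0.46), LRPPRC (0.43) and MTPAP (0.50) were higher with CoCl2 on the log2 scale but stood at -0.087, -0.12 and -0.048 with library totals alone. FASTKD2 (-0.79) and SLIRP (-0.31) were lower with CoCl2 under either scale. For PNPT1 the difference was -0.14 (95% interval -0.29 to 0.0030; edgeR adjusted p = 0.0645), and with library totals alone it was -0.69. This difference depended on the count filter (-0.21 with none and -0.20 with at least 10 counts in every library, both past the adjusted p threshold), on upper-quartile factors (-0.27, likewise), on fitting only the 6 libraries compared (-0.15, likewise) and on single libraries, being -0.042 without CoCl2 replicate 1 (edgeR adjusted p = 0.517) and passing the threshold on adjusted p without CoCl2 replicate 2 (-0.22), OD replicate 1 (-0.18), Control replicate 1 (-0.16) or Control replicate 2 (-0.15).

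Which scale is used mattered for CoCl2 because the fold changes of all genes had their median at -0.049 (log2) with TMM factors and -0.55 with library totals alone. Among all differentially expressed genes, 46% were higher with CoCl2 under TMM and 23.9% under library totals. Relative to the -0.55 median, the members stood at 0.95 for TFB2M, 0.94 for POLRMT, 1.41 for SUPV3L1, 0.29 for TWNK, 0.25 for LRPPRC and 0.22 for MTPAP. SLIRP, PNPT1 and FASTKD2 stood at -0.96, -1.24 and -1.50 on that basis. A change of scale shifts all genes nearly alike, so these differences restate the TMM values and are not a further test. For OD against control the scale made little difference, with PNPT1 at -1.11 and TWNK at -0.73 on library totals alone.

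**Figure D3:**
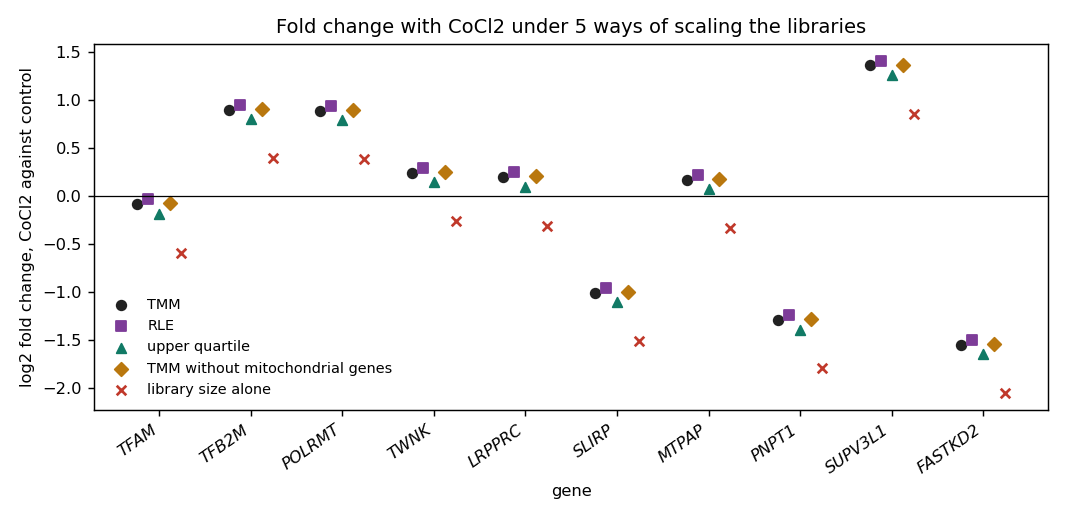
Log2 fold change with CoCl2 against control (vertical axis) for each gene under 5 ways of scaling the libraries. TMM, RLE and TMM without mitochondrial genes lie close together, upper-quartile factors slightly lower, and library size alone lowest, where TWNK, LRPPRC and MTPAP fall below 0 (-0.26, -0.31 and -0.34).

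Ratios of counts within a library do not depend on its scale, and 3 such ratios between partner genes were computed after the values had been seen. SUPV3L1 counts per PNPT1 count, the partners of the RNA-degrading complex, were 0.434 ± 0.032 in control libraries, 2.75 ± 0.376 in CoCl2 libraries and 0.919 ± 0.0058 in OD libraries (SD, n = 3 each). The ratio was thus 6.34-fold that of control with CoCl2 and 2.12-fold with OD, without overlap of libraries. LRPPRC counts per SLIRP count were 6.74 ± 0.438 in control cells, 15.5 ± 0.347 with CoCl2 (2.30-fold) and 9.32 ± 0.276 with OD (1.38-fold), also without overlap. TFB2M per TFAM count was 0.163 ± 0.0047 in control cells and 0.324 ± 0.036 with CoCl2 (1.99-fold). With OD it was 0.170 ± 0.020 and overlapped control (exact permutation p = 0.7), while the other comparisons of these ratios with control had an exact permutation p = 0.1, the smallest possible. The pairs were picked with the values in view, so these p values describe the ratios and are no further test.

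**Figure D4:**
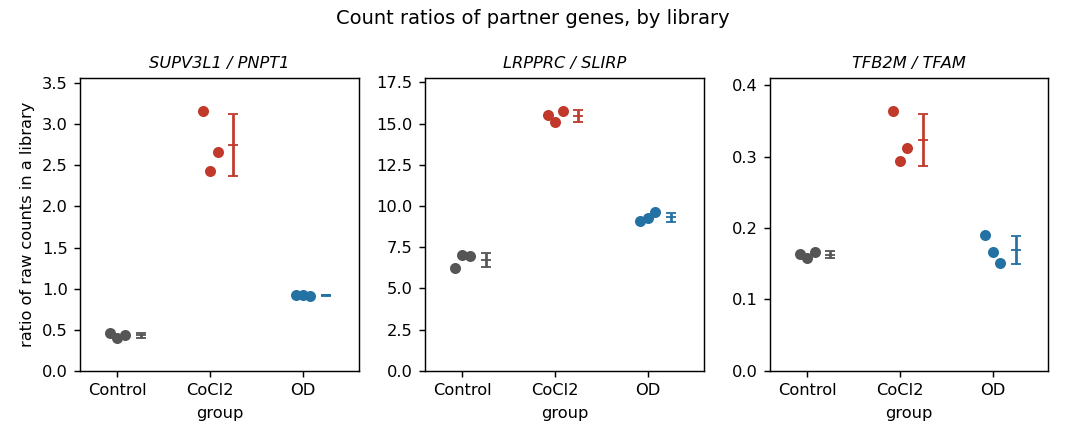
Ratio of raw counts of partner genes in each library (vertical axes, from 0) by group, with points for libraries and bars for mean ± SD (n = 3). SUPV3L1 over PNPT1 goes from 0.434 in control cells to 2.75 with CoCl2 and 0.919 with OD, and TFB2M over TFAM rises with CoCl2 but overlaps control with OD.

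Levels can be set beside each other between genes only per length of transcript. Per kilobase of the canonical transcript, control cells held SLIRP at 203 CPM, LRPPRC at 77.9, TFAM at 46.2, PNPT1 at 37.1, SUPV3L1 at 29.4 and TFB2M at 21.2 CPM. POLRMT, TWNK, FASTKD2 and MTPAP followed at 18.9, 16.7, 11.8 and 9.01 CPM per kilobase. Per kilobase of all annotated exons, the order became TFAM (43.97), PNPT1 (31.9), SLIRP (29.1), TFB2M (21.2), SUPV3L1 (17.0), LRPPRC (14.8), TWNK (14.6), POLRMT (14.1), FASTKD2 (8.08) and MTPAP (6.01). In that second order the libraries of PNPT1 and SLIRP overlapped, as did those of LRPPRC, TWNK and POLRMT. LRPPRC changed place most, since its annotated exons cover 34689 bases and its canonical transcript 6603. With CoCl2, SUPV3L1 (43.8 CPM) and TFAM (41.6 CPM) led per kilobase of exons with overlapping libraries, and FASTKD2 was last at 2.76 CPM. Per kilobase of the canonical transcript, SUPV3L1 (75.7 CPM) came after SLIRP (101.6) and LRPPRC (89.4), and FASTKD2 was again last at 4.01 CPM.

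The summed level of the 10 genes was 1363 ± 48.8 CPM in the control group, 1462 ± 50.6 after CoCl2 and 999 ± 31.8 after OD on the TMM scale, whereas CPM on library totals alone were 1517 ± 60.5, 1147 ± 54.3 and 1144 ± 42.8 (SD, n = 3 each), so the order of CoCl2 and control depended on the scale. The 13 mitochondrially encoded messenger RNAs summed to 46454, 72787 and 24926 CPM (means) on the TMM scale, and to 5.17% ± 0.097, 5.71% ± 0.143 and 2.85% ± 0.028 of library totals, in the same order of groups. All 13 fell with OD, with a median log2 fold change of -0.97, and all 13 rose with CoCl2, with a median of 0.63. With library totals alone the median with CoCl2 became 0.13 (11 of 13 positive). By the adjusted p on that scale, 9 were higher and 1, MT-CO3 (-0.14), was lower. The ribosomal RNAs MT-RNR1 and MT-RNR2 rose with both agents, with log2 fold changes of 1.20 and 1.02 with CoCl2 (0.70 and 0.52 with library totals alone) and 2.13 and 1.07 with OD. The libraries were selected for poly(A) tails, so these values favour tailed RNA. The parts of tail length and of carried-over RNA without a tail were not tested.

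The rest of the machinery was described by 55 further genes in 3 lists, of which 54 were tested (MRM2 was not, with 3 to 8 counts). With CoCl2, 5 were upregulated and 15 downregulated past both thresholds, and 18 rose and 30 fell by the adjusted p alone (median log2 fold change -0.25). With library totals alone these counts were 1 and 21 past both thresholds and 9 and 43 by the adjusted p. On that scale 7672 of all 15944 genes tested passed both thresholds, and 23.9% of those were higher. Over all genes tested, with TMM factors, 19.9% were higher and 23.4% lower past both thresholds. By the adjusted p alone these shares were 40.4% and 42.8%. With OD, 0 were upregulated and 2 downregulated, while 2 rose and 39 fell by the adjusted p alone (median -0.37). Library totals alone gave 0 and 1 past both thresholds and 2 and 34 by the adjusted p. Over all genes with OD, under TMM factors, 9.09% were higher and 4.16% lower past both thresholds. By the adjusted p alone the shares were 32.3% and 33.3%. As for the 10 members, changes with OD were mostly small decreases.

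Among 16 other genes of transcription, replication and genome maintenance, CoCl2 raised both subunits of the mitochondrial DNA polymerase, POLG (log2 fold change 1.12 ± 0.050) and POLG2 (1.09 ± 0.077), at 0.62 and 0.58 with library totals alone. It lowered MTERF2 (-1.57 ± 0.150) and MTERF3 (-1.09 ± 0.103), of the mitochondrial transcription termination factor family, the primase-polymerase PRIMPOL (-1.48 ± 0.204) and the nuclease-helicase DNA2 (-1.33 ± 0.057). With OD POLG rose by 0.58 ± 0.050 and POLG2 fell by 0.92 ± 0.092 on the log2 scale, so the 2 subunits moved apart.

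In the list of 20 other RNA processing and decay genes, FASTKD5, a relative of FASTKD2 needed for processing of transcripts without flanking transfer RNAs, rose with CoCl2 from 63.1 to 64.8 CPM in control libraries to 244 to 261 CPM. Its log2 fold change was 1.97 ± 0.047 with CoCl2 (edgeR adjusted p = 7.99e-45) and -0.082 ± 0.050 with OD (edgeR adjusted p = 0.147). CoCl2 downregulated 6 genes of this list, led by the helicase DDX28 (-1.67 ± 0.105), PTCD2 (-1.41 ± 0.086), the enzyme TRNT1 that adds CCA ends to transfer RNAs (-1.29 ± 0.075) and the nuclease LACTB2 (-1.24 ± 0.088). Over all genes, 23.4% were downregulated with CoCl2. OD downregulated TRNT1 (-1.09 ± 0.069) and PTCD2 (-1.01 ± 0.077, or -0.97 and below the fold threshold with library totals alone), beside 4.16% of all genes. By the adjusted p alone 18 of the 20 fell (16 with library totals), beside 33.3% of all genes. Against OD, CoCl2 gave more FASTKD5 (2.05 ± 0.047) and REXO2 (1.17 ± 0.043, or 0.63 with library totals alone), an exonuclease for short RNA fragments, and less FASTK (-1.15 ± 0.060).

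Of 18 tested RNA modification enzymes, CoCl2 raised NSUN3 (1.27 ± 0.102), a methyltransferase of mitochondrial transfer RNA, and MRM3 (1.10 ± 0.102), a methyltransferase of ribosomal RNA, at 0.76 and 0.59 with library totals alone. CoCl2 lowered 5, among them MRM1, another ribosomal RNA methyltransferase, from 20.4 to 22.1 CPM in control cells to 2.41 to 2.705 CPM (-3.06 ± 0.115, edgeR adjusted p = 4.14e-34). GTPBP3 (-1.84), PUS1 (-1.82) and RPUSD3 (-1.43) fell too. Past both thresholds, 19.9% of all genes were higher and 23.4% lower with CoCl2. The 3 methyltransferases of the MRM family thus gave 1 rise, 1 fall and 1 gene too low to test. With OD 11 of the 18 fell and 0 rose by the adjusted p alone (33.3% and 32.3% of all genes), and 0 passed the threshold on fold change (13.3% of all genes).

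**Figure D5:**
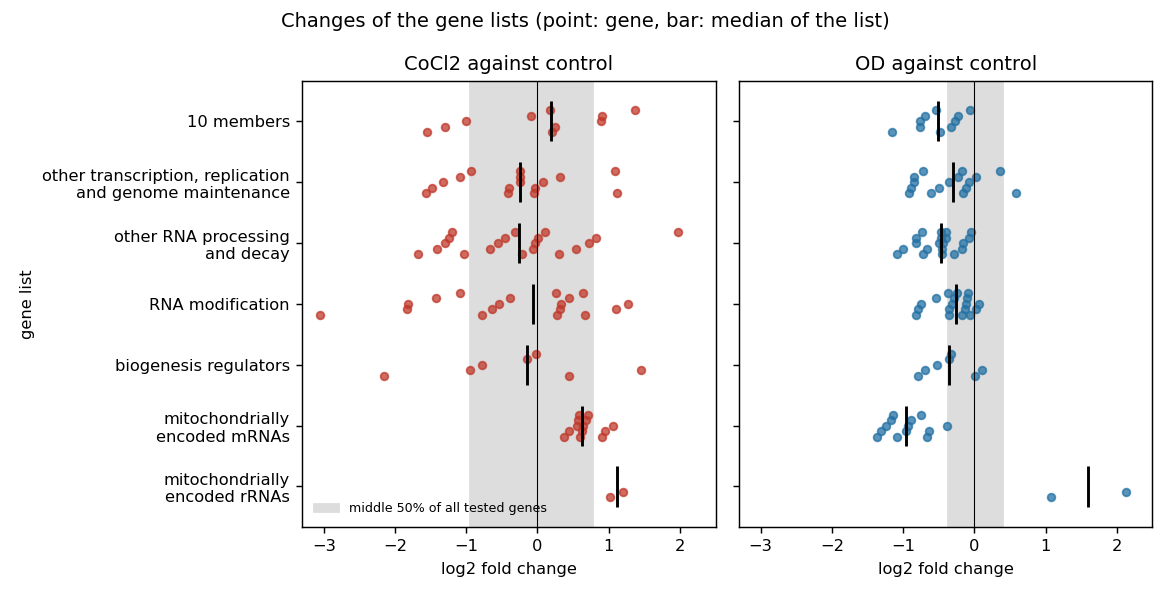
Log2 fold change (horizontal axis) of single genes (points) in the 10 members and 6 related lists, with CoCl2 (left) and OD (right) against control, black bars for list medians and grey bands for the middle 50% of all genes tested. CoCl2 spreads the members and the other machinery over both directions. OD shifts their medians to -0.51 for the members and below 0 for the other machinery. With library totals alone 11 of the 13 mitochondrial messenger RNAs stay above 0 with CoCl2, 9 of them by the adjusted p, and MT-CO3 is lower.

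Of the 8 regulators of mitochondrial biogenesis listed, 7 were tested, and PPARGC1A was not, with 0 to 1 count per library. GABPA, the ETS factor whose core was searched above, rose with CoCl2 from 16.1 to 17.8 CPM in control libraries to 43.7 to 48.8 CPM (log2 fold change 1.45 ± 0.069, 0.94 with library totals alone) and changed by -0.35 ± 0.080 with OD. Its partner GABPB1 changed by 0.45 ± 0.061 with CoCl2, or -0.057 with library totals alone, and by -0.52 ± 0.064 with OD. NRF1 was at -0.15 ± 0.081 with CoCl2 (edgeR adjusted p = 0.0767) and fell with OD (-0.80 ± 0.084, edgeR adjusted p = 7.07e-13). With library totals alone NRF1 (-0.66) and PPRC1 (-0.53), a coactivator, were lower with CoCl2.

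The coactivators PPARGC1B and PPRC1 gave different values with each agent. PPARGC1B fell with CoCl2 (log2 fold change -2.16 ± 0.090) and was at 0.011 ± 0.066 with OD (edgeR adjusted p = 0.889), while PPRC1 was at -0.024 ± 0.046 with CoCl2 (edgeR adjusted p = 0.631) and fell with OD (-0.70 ± 0.047). ESRRA, a nuclear receptor of energy metabolism, fell with CoCl2 (-0.95 ± 0.064) and was at 0.11 ± 0.056 with OD (edgeR adjusted p = 0.0819). MYC fell with both (-0.78 ± 0.054 and -0.34 ± 0.051).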

How the data were processed

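The authors checked reads with FastQC 0.11.9, trimmed adapters with cutadapt 2.10, mapped them on GRCh38 with STAR 2.7.5b and deposited raw read counts per gene symbol. The counting tool, its use of strand and its treatment of reads that fit several genes are not given in the sources used here. A robust quasi-likelihood model of edgeR 4.0.16 (R 4.3.3) was fitted to the 15944 genes passing its filter over all 9 libraries, with TMM factors and Benjamini-Hochberg adjustment over all genes. CPM are counts after each library was brought to an equal effective size with TMM factors. Two-sided exact permutation tests used log2 CPM. Replicates of a group differed by more than sampling noise (chi-square per degree of freedom 1.82 to 3.32). On simulated data with 200 changed genes the fit for CoCl2 against control recovered 183 of the 193 tested, with 0 false calls. The changed genes were all set beyond the fold threshold, and all other genes were left unchanged. In the data 83.2% of genes changed with CoCl2 by the adjusted p, so the simulation did not test the choice of scale.

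The members and lists were chosen with earlier results of these data known. All members were named, with at most 4 called genes per list, comparison and direction, all tested biogenesis regulators, and for each member the gene most like it. Alternatives were scaling by library size alone, RLE or upper-quartile factors, factors without mitochondrial genes, other count filters, DESeq2 1.42.0, glmTreat, fits on 6 libraries, the replicate number as a block, thinned counts and each library left out in turn. The canonical transcript length was added after seeing the data. Coordinates and lengths came from GENCODE 44, promoters from RefSeq (GRCh38.p14).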

Additional observations from a re-analysis of the deposited data

How the results depend on the processing

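By the adjusted p alone, 9 members passed in each of the 3 comparisons. In a test against a log2 fold change of 1 (edgeR glmTreat), 0 members passed with OD against control, with 1 at an unadjusted p under 0.05 (PNPT1, adjusted p = 0.0598), while DESeq2 called 1. Library size alone left 1 member, FASTKD2, in CoCl2 against OD, and it reversed TWNK (-0.26), LRPPRC (-0.31) and MTPAP (-0.34) with CoCl2 against control and TFAM (-0.087), LRPPRC (-0.12) and MTPAP (-0.048) in CoCl2 against OD; the scale itself is what this alternative changes. Over the other alternatives 3 to 4 members were called with CoCl2, 1 with OD and 3 to 4 in the direct comparison, and leaving out each library gave 3 to 4, 1 and 3 to 4. The mean of each group was first subtracted from the log2 CPM of each gene. Correlations of what remained, between same-numbered libraries of different groups, were -0.0049 to 0.038 over 9 pairs, and 0 of them exceeded 0.1. Such low values do not settle whether replicate numbers pair the samples. With the replicate number as a block, 4, 1 and 4 members were called, and TFAM with CoCl2 (adjusted p = 0.0447) and PNPT1 in CoCl2 against OD (0.00535) passed the adjusted p threshold. Of the values of single members, 321 under other settings and 264 with a library left out kept their direction and their side of the adjusted p threshold, whatever the fold change; 23, most of them in the glmTreat test, no longer passed the adjusted p, and 10 and 6 newly passed it, in the same direction. Each member held 348 to 10929 counts in each library, and the standard errors of their log2 fold changes were 0.040 to 0.070.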

Other observations

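Among the other 15943 genes tested, the pattern closest to each member over the 9 libraries was measured as the root mean square difference of mean-centred log2 CPM. LRPPRC was closest to HACD3 (0.030), SUPV3L1 to ZC3H3 (0.030), MTPAP to UBP1 (0.033) and POLRMT to the actin gene ACTG1 (0.035). TWNK was closest to TXLNG (0.043), TFAM to the mitotic kinesin KIF11 (0.044) and SLIRP to ESD (0.058). TFB2M lay 0.066 from TENT4B, a nuclear poly(A) polymerase, and FASTKD2 lay 0.070 from the cyclin CCNA2. PNPT1 had the fewest neighbours, with DIMT1, an enzyme that methylates cytosolic ribosomal RNA, at 0.091 and only 2 genes within 0.1, compared with 245 for MTPAP and 235 for LRPPRC. These distances are descriptions. The number of neighbours did not follow the size of the change alone, with 95 genes within 0.1 for SUPV3L1 and 67 for TFAM.

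Among the members themselves, LRPPRC and MTPAP were the closest pair (0.059), followed by TFAM with MTPAP (0.137) and TFB2M with POLRMT (0.141).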
